A study of Mus musculus with 20 samples.

Results

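Type I interferon response genes were followed in mouse liver across 3 dose-rates of gamma rays. The set comprised 41 named genes, and a gene counted as measured where a probe set of the array was annotated with its symbol alone. Of the 41, 39 were measured, among 18193 genes so annotated on the array. Isg15, the ubiquitin-like modifier, lay on a probe set of several symbols and was left out, and Ifi44 was not analysed here. Where a gene had several probe sets, the brightest by its mean over all arrays was used. The filter on low signal, a mean of at least 84.9 (the median over all probe sets), was passed by 36 of the 39 and by 11206 genes in all. The 3 that did not pass were the GTPase genes Mx1 and Mx2 (mean signals 73.5 and 24.5) and Oas3 (38.6), and they enter no count.

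All mice were male C57BL/6J with no stated genetic change, kept specific-pathogen-free, and liver RNA was measured on 20 Affymetrix arrays. The irradiated mice entered at 8 weeks of age and received 137Cs gamma rays for 22 h per day. In experiment 1 this lasted 485 days, at 0.042 (low), 0.858 (medium) or 16.6 mGy per day (high), with cumulative doses of 20.6, 416 and 8030 mGy. Experiment 2 lasted 401 days at 0.05, 1.00 or 20.0 mGy per day, with cumulative doses of 20, 401 and 8015 mGy. Each irradiated group had 3 arrays of 1 mouse each. Each experiment had 1 control array, RNA pooled from unirradiated mice, 3 in experiment 1 and 6 in experiment 2. The age of the pooled mice was not stated. The pools have no spread of their own, so p-values rest on the spread between the irradiated mice, pooled over all groups. In the fit of dose level plus experiment they also take in how far the dose-level differences, pools included, disagreed between experiments. No source used here states the hour of the kill.

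Type I interferons are secreted proteins that cells release when they sense foreign or misplaced nucleic acid. They bind the receptor of IFNAR1 and IFNAR2, whose kinases activate transcription factors, among them STAT2, which joins IRF9 and binds the interferon-stimulated response element (ISRE) in promoters. The genes so induced encode sensors, factors that block viral RNA, enzymes that attach ISG15 and feedback inhibitors, and in liver both hepatocytes and Kupffer cells can respond.

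The ISRE can be seen in the promoters of several members. RefSeq promoters of build GRCm38.p6, each covering 250 bases before and 50 bases after a start site, were found for 29 of the 39 members by symbol. The ISRE letters, GAAA followed by any 2 bases and GAAA again, were searched on both strands and occurred in the windows of 12 of the 29 (41.4%), against 4.0% of all genes with a window. The letters TTCNNNGAA, the gamma-activated sequence (GAS), occurred in 7 of the 29 (24.1%), against 9.6% of all genes, and a base could count for both elements. Among the members above the signal filter, 8 had an ISRE before the start site. The sequences of 5 of these are shown, those with the smallest p for high against control, and they show the element in both orientations and repeated. They run 5′ to 3′ along the strand of the gene, and capitals mark the complete ISRE matches.
Rsad2: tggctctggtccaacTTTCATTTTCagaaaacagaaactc
Ifit1: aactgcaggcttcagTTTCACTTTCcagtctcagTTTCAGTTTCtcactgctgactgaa
Trim30a: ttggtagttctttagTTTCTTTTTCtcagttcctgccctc
Ifit3: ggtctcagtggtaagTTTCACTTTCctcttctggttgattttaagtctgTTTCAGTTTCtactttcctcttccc
Oas1a: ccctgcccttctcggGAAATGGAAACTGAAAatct
The stretches lie at chr12:26456548-26456587 (minus strand) for Rsad2, chr19:34640770-34640828 (plus strand) for Ifit1, chr7:104465205-104465244 (minus strand) for Trim30a, chr19:34583358-34583431 (plus strand) for Ifit3 and chr5:120907526-120907560 (minus strand) for Oas1a. The match nearest the start site of Rsad2 ended 110 bases before it and that of Oas1a 4 bases before it. Ifit1 and Ifit3 each carried 2 separate matches, and those of Oas1a overlapped. A match is a run of letters and does not show binding, and these arrays did not measure binding.

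Values are MAS5 signals, a brightness in arbitrary units, and array medians ran from 81.3 to 104.8. Hepatocyte markers fitted the label liver, with 9 of 9 above the filter and a summed signal of 358670 to 467740. The experiments differed in duration, dose-rates, age at death and pool size, and 42.7% of all genes differed between them. For Gapdh, whose 3′ and 5′ probe sets report on RNA quality, the 3′ signal divided by the 5′ signal ran from 0.69 to 0.769 over the arrays of experiment 1 and from 0.871 to 0.993 over those of experiment 2. Dose levels were therefore compared within experiment and the differences averaged, with standard errors (SE) and adjusted p from limma over all 11206 genes. A difference is on the log2 scale of the signal plus 7.12, where 1 is about a doubling. In whole liver, a change in the number of responding cells and a change in RNA per cell cannot be told apart.

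In mice at the high dose-rate most interferon genes read higher than in unirradiated mice, and none passed the threshold. Of 36 members, 31 were higher than control (51.4% of all genes were), with a median difference of 0.37 against 0.01 over all genes. The members ranged from -0.90 (Oas2) to 1.28 (Usp18). None had an adjusted p under 0.05 by limma, as had 0.0803% of all genes, and 7 had an unadjusted p under 0.05, all higher, against 4.1% of all genes in that direction. These 7 were Oasl1, Oasl2, Samd9l, Usp18, Rsad2, Parp12 and Rtp4. The median was 0.19 without the pool of experiment 1 and 0.49 without the pool of experiment 2. At the medium and low dose-rates the medians were 0.04 and 0.03, with 22 members higher in each (52.1% and 50.1% of all genes). An unadjusted p under 0.05 was found for 1 member at the medium dose-rate, Oasl1 (3.61% of all genes in that direction), and for 0 at the low dose-rate (2.17%). None passed the adjusted threshold at either, as did 0.0357% and 0.00892% of all genes. Centring the arrays on their medians turned both medians below 0, with 15 members higher at the medium and 14 at the low dose-rate. The 3 comparisons with control share the same 2 pools. The summed marker signals of lymphocytes also read higher than the pools in all 18 irradiated mice. B and plasma cell markers summed to 753 in the pool and 956 to 2026 in the mice of experiment 1, and to 801 and 914 to 1648 in experiment 2. T and NK cell markers, 11 of 12 below the filter, summed to 581 in the pool and 601 to 1103 in the mice of experiment 1, and to 529 and 538 to 784 in experiment 2. Cd8a, the 1 T and NK gene above the filter, averaged lower than control. It was -0.31 ± 0.50 at the high, -0.42 ± 0.50 at the medium and -0.67 ± 0.50 at the low dose-rate. The part of lymphocytes in the differences from control was not tested.

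The high dose-rate differences were larger in experiment 1. The median was 0.65 in experiment 1 alone, with 34 of 36 members higher (50% of all genes). In experiment 2 alone it was 0.09, with 21 of 36 higher (49.8% of all genes). All 3 high mice lay above the pool for 30 members in experiment 1 (27.2% of all genes) and for 11 in experiment 2 (26% of all genes). All 6 high mice lay above the pool of their own experiment for 10 members, against 8.55% of all genes: Irf7, Oasl1, Usp18, Rsad2, Cmpk2, Parp9, Parp12, Rtp4, Ifi27l2a and Lgals3bp. The difference of the high dose-rate effect between experiments was positive for 3 of 36 members, against 48.9% of all genes (median -0.56), with 6 at an unadjusted p under 0.05 below 0 (2.2% of all genes) and 0 past the adjusted threshold (0.00892% of all genes). For medium against control it was positive for 26 of 36 (50.5% of all genes), with 0 at an unadjusted p under 0.05 above 0 (1.51% of all genes). For low against control it was positive for 3 of 36 (50% of all genes), with 2 at an unadjusted p under 0.05 below 0 (2.38%) and 0 above 0 (1.81%). By limma none of these passed after adjustment.

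**Figure D1:**
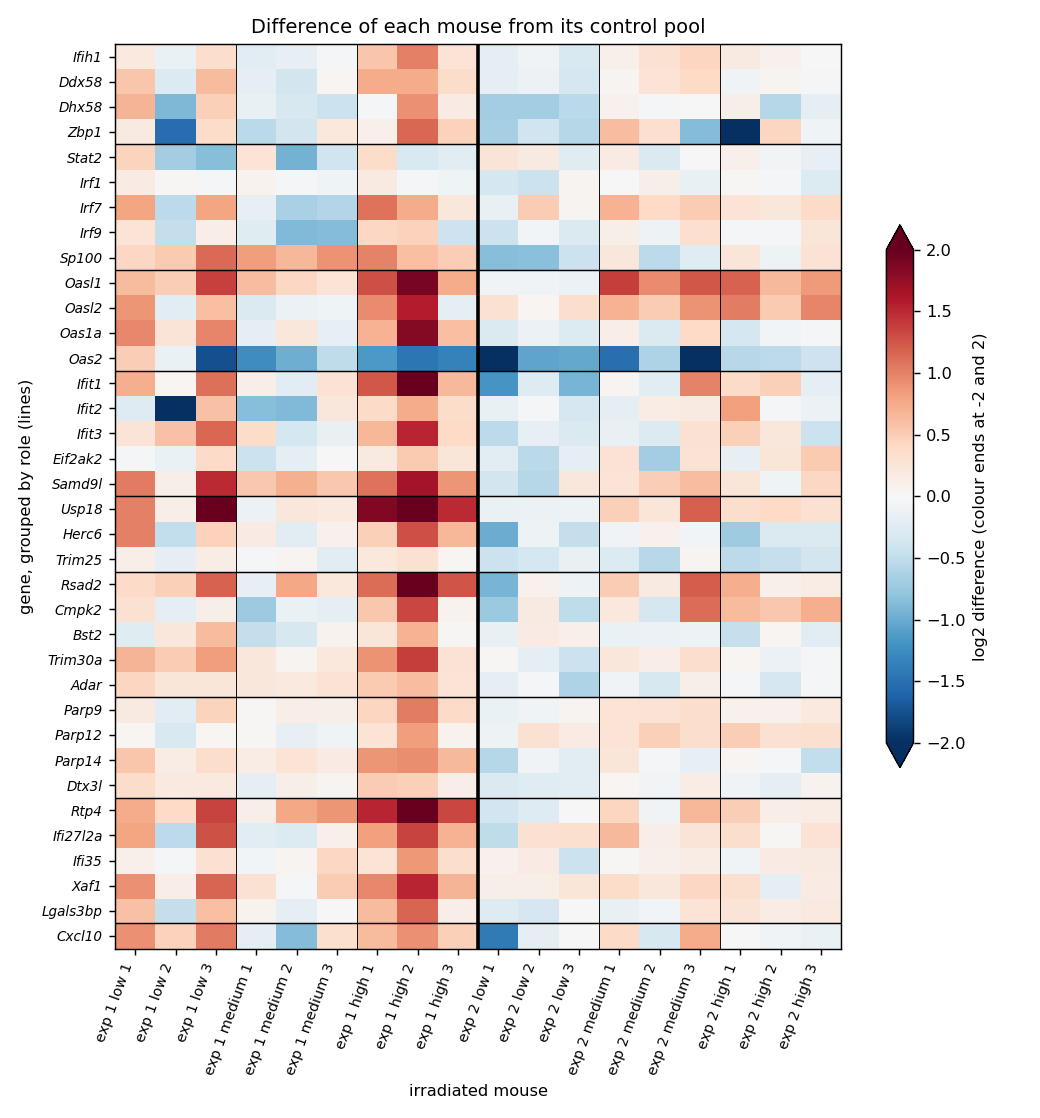
Each cell is 1 gene in 1 irradiated mouse, coloured by its log2 difference from the control pool of the same experiment, with colours ending at -2 and 2, genes grouped by role and columns by experiment and dose level. The columns of the experiment 1 high mice are red for most genes, with 30 of 36 members above the pool in all 3 mice, and Oas2 runs blue in nearly all columns.

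Among the sensors of foreign nucleic acid, 3 of 4 were higher at the high dose-rate than in control (51.4% of all genes were). The median was 0.18 (range -0.02 to 0.35), and 0 had an unadjusted p under 0.05. Each role holds few genes, and the members varied together from mouse to mouse, so the role counts are a description. Ifih1 encodes MDA5, which senses long double-stranded RNA. Ifih1 signals in experiment 1 were 1378 in the pool, 1583, 1252 and 1766 in the low mice, 1191, 1233 and 1360.5 in the medium mice and 2034, 2779 and 1663 in the high mice. Those of Ifih1 in experiment 2 were 1363 in the pool, 1206, 1294 and 1097 in the low mice, 1464, 1678 and 1833 in the medium mice and 1545, 1449 and 1361 in the high mice. In experiment 1 the 3 high mice lay above the pool and all medium mice and overlapped the low mice, and in experiment 2 the low mice lay below all others. Ifih1 was 0.35 ± 0.21 (adjusted p = 0.761) from control at the high dose-rate.

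Ddx58 encodes RIG-I, which senses RNA with an uncapped end. Ddx58 signals in experiment 1 were 727 in the pool, 1069.5, 600.2 and 1132 in the low mice, 634, 564 and 747 in the medium mice and 1215, 1216 and 944 in the high mice. Those of Ddx58 in experiment 2 were 818 in the pool, 723, 754 and 639 in the low mice, 852, 986 and 1082 in the medium mice and 781, 854 and 799 in the high mice. High and medium mice were separate in experiment 1, while the high mice of experiment 2 lay on both sides of their pool. Its difference was 0.30 ± 0.25 (adjusted p = 0.824), and 1 of its 2 further probe sets read in the other direction. Dhx58 encodes LGP2, a regulator of both sensors. Dhx58 signals in experiment 1 were 179.5 in the pool, 291, 93.2 and 252 in the low mice, 161, 142 and 132 in the medium mice and 175, 346 and 201 in the high mice. Those of Dhx58 in experiment 2 were 244 in the pool, 148, 148 and 166 in the low mice, 260.1, 239 and 245 in the medium mice and 264, 162 and 212 in the high mice. The low mice of experiment 2 all lay below their pool, and the medium mice lay close to it. Against control Dhx58 was 0.06 ± 0.35 (adjusted p = 0.982) at the high dose-rate. Zbp1, a sensor of left-handed nucleic acid, ranged from 46.9 to 631.9 over the 20 arrays and was -0.02 ± 0.57 (adjusted p = 0.995), with its other probe set opposite.

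Of the transcription factors 3 of 5 were higher (51.4% of all genes), with a median of 0.11. Irf7 encodes the factor that amplifies interferon production. Irf7 signals in experiment 1 were 779 in the pool, 1354, 538 and 1359 in the low mice, 698, 493 and 518 in the medium mice and 1657, 1312 and 911 in the high mice. Those of Irf7 in experiment 2 were 988 in the pool, 896, 1416 and 1023 in the low mice, 1611, 1310.2 and 1412 in the medium mice and 1193, 1155 and 1298 in the high mice. All 6 high mice exceeded their pools. In experiment 1 the medium mice lay below the pool and below every high mouse, and in experiment 2 they lay above the pool and above every high mouse. The high against control difference of Irf7 was 0.49 ± 0.35 (adjusted p = 0.795).

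Irf9 encodes the DNA-binding partner of STAT2. Irf9 signals in experiment 1 were 759.6 in the pool, 922, 543 and 836 in the low mice, 641, 410.2 and 414 in the medium mice and 1016, 1048 and 568 in the high mice. Those of Irf9 in experiment 2 were 589 in the pool, 435, 567 and 479 in the low mice, 643, 549 and 746 in the medium mice and 581, 582 and 700.0 in the high mice. The groups of experiment 1 overlapped, and in experiment 2 the low mice lay below the pool and below all high mice. Irf9 was 0.11 ± 0.28 (adjusted p = 0.95). Sp100, a component of nuclear bodies, had low signals. Sp100 signals in experiment 1 were 70.1 in the pool, 96.1, 104 and 163 in the low mice, 131, 115 and 136 in the medium mice and 146, 109.5 and 101.1 in the high mice. Those of Sp100 in experiment 2 were 134 in the pool, 70.7, 72.2 and 97.9 in the low mice, 158, 90.6 and 112 in the medium mice and 160.3, 125 and 164 in the high mice. All 9 irradiated mice exceeded the pool in experiment 1, and the 3 low mice lay below it in experiment 2. Sp100 was 0.42 ± 0.33 (adjusted p = 0.816) at the high dose-rate. Stat2 (-0.05 ± 0.30) and Irf1, a factor induced by both interferon types (-0.04 ± 0.13), differed from control by less than their standard errors.

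The OAS family held the member with the smallest p of the whole set, Oasl1. Of its 4 genes above the filter, 3 were higher at the high dose-rate (51.4% of all genes), with a median of 0.63. Oasl1 encodes a protein that in mice restrains translation of Irf7 mRNA. Oasl1 signals in experiment 1 were 418 in the pool, 649, 594 and 1087 in the low mice, 648, 557 and 505 in the medium mice and 1035, 1578 and 708 in the high mice. Those of Oasl1 in experiment 2 were 347 in the pool, 329.6, 331 and 318 in the low mice, 917, 676 and 832 in the medium mice and 794, 546 and 629 in the high mice. All 9 irradiated mice of experiment 1 lay above their pool. In experiment 2 the medium and high mice all lay above it and the 3 low mice just below it, with no overlap between the low mice and the others. Oasl1 was 1.10 ± 0.35 (adjusted p = 0.393) from control at the high, 0.81 ± 0.35 (adjusted p = 0.763) at the medium and 0.37 ± 0.35 (adjusted p = 0.998) at the low dose-rate. With each array weighted by its number of mice, the high against control difference was 1.08 ± 0.25 and passed (adjusted p = 0.0305 by limma). Such weights assume that the variance of an array falls in proportion to its mice, which 1 pool array per experiment cannot show.

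Oasl2 encodes a relative that still makes the messenger oligoadenylate. Oasl2 signals in experiment 1 were 186 in the pool, 350.1, 160.3 and 287 in the low mice, 151, 172 and 175 in the medium mice and 365, 565 and 164 in the high mice. Those of Oasl2 in experiment 2 were 150.4 in the pool, 187, 155 and 194 in the low mice, 247, 216 and 288 in the medium mice and 314, 219 and 302 in the high mice. High mouse 3 of experiment 1 read below its pool and the other 5 high mice above theirs. Oasl2 was 0.81 ± 0.36 (adjusted p = 0.644). Oas1a, another oligoadenylate synthase gene, was 1.05 in experiment 1 alone and -0.15 in experiment 2 alone.

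Oas2, a further oligoadenylate synthase gene, was the member furthest below control. Oas2 signals in experiment 1 were 86 in the pool, 124, 77.8 and 20.4 in the low mice, 32.2, 40.3 and 58.7 in the medium mice and 34.9, 27.1 and 29.4 in the high mice. Those of Oas2 in experiment 2 were 220.2 in the pool, 49.3, 103 and 104.8 in the low mice, 72.5, 141 and 27.8 in the medium mice and 148, 152 and 164 in the high mice. All high and medium mice and the low mice of experiment 2 lay below their pools, and 1 low mouse of experiment 1 lay above. Oas2 was -0.90 ± 0.61 (adjusted p = 0.794) at the high, -1.26 ± 0.61 (adjusted p = 0.815) at the medium and -0.91 ± 0.61 (adjusted p = 0.998) at the low dose-rate. Its mean signal of 85.6 lies just above the filter, so many of these values are not shown to be above background.

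**Figure D2:**
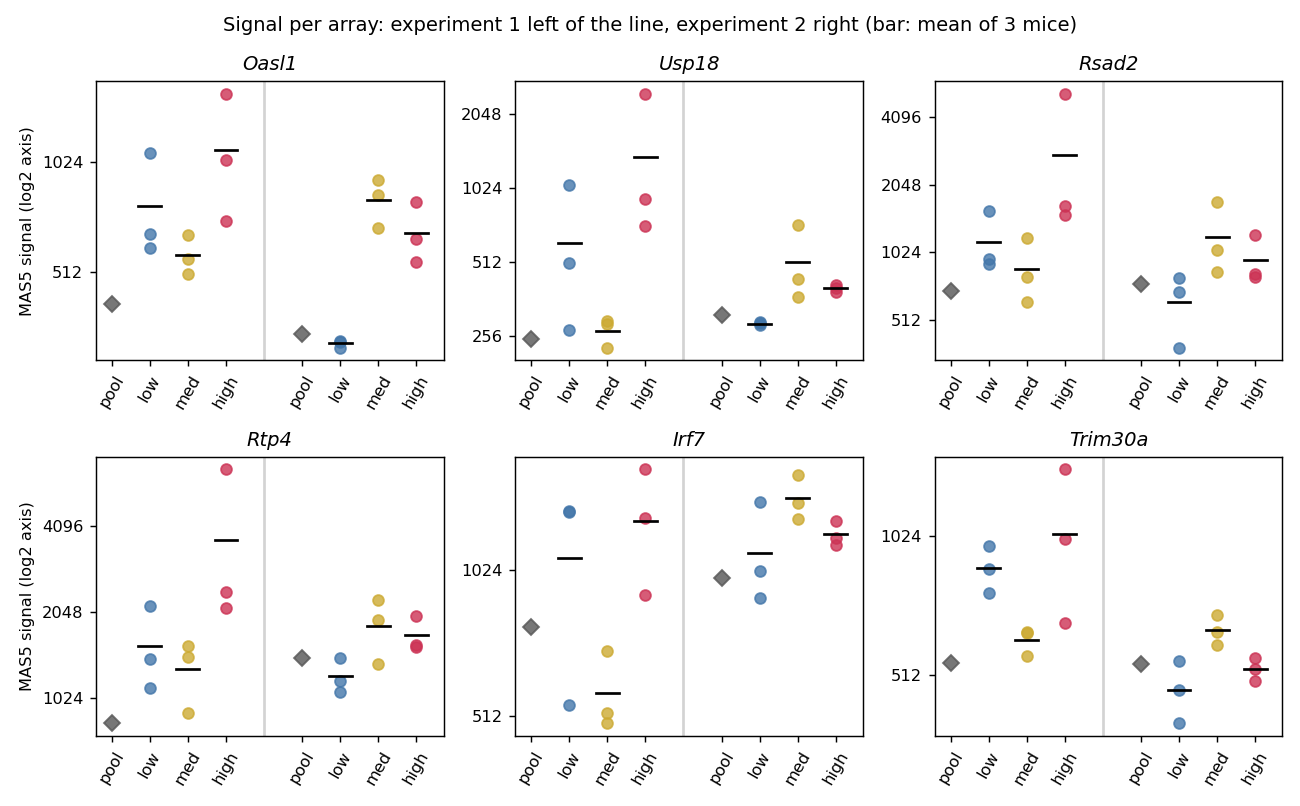
Signal of 6 interferon genes on a log2 axis, with 1 point per array, the pool as a diamond, low, medium and high mice left to right, experiment 1 left of the grey line and bars at the mean of 3 mice. In experiment 1 the high group has the highest mean and medium the lowest of the irradiated groups for all 6 genes, and in experiment 2 the medium group has the highest mean and low the lowest. Not all members share this order: in experiment 2 medium was the highest for 24 of 36 and low the lowest for 30.

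IFIT proteins bind viral RNA and hold back its translation, and PKR, the product of Eif2ak2, stops translation when it meets double-stranded RNA. All 5 measured genes of this role were higher than control at the high dose-rate (median 0.48, range 0.26 to 0.88), against 51.4% of all genes. Ifit1 signals in experiment 1 were 225 in the pool, 378, 231 and 492 in the low mice, 247, 193 and 276 in the medium mice and 542, 1539.5 and 355 in the high mice. Those of Ifit1 in experiment 2 were 309.7 in the pool, 133, 259 and 159.6 in the low mice, 321, 266 and 621 in the medium mice and 404, 431 and 273 in the high mice. In both experiments the high mice lay above every medium or every low mouse, medium in experiment 1 and low in experiment 2. Ifit1, whose promoter carries the repeated element shown above, was 0.88 ± 0.49 (adjusted p = 0.743).

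Ifit3 encodes a partner that stabilises IFIT1. Ifit3 signals in experiment 1 were 430.4 in the pool, 517, 652 and 964 in the low mice, 555, 335 and 388 in the medium mice and 687, 1254 and 568 in the high mice. Those of Ifit3 in experiment 2 were 349 in the pool, 242, 312 and 285 in the low mice, 313, 286 and 431 in the medium mice and 486, 412 and 257 in the high mice. In experiment 1 all low and all high mice exceeded the pool, and in experiment 2 the low mice were below it. Ifit3 was 0.48 ± 0.33 (adjusted p = 0.794). Samd9l encodes an antiviral factor that restrains translation. Samd9l signals in experiment 1 were 511 in the pool, 1054, 554 and 1448 in the low mice, 745, 836 and 744 in the medium mice and 1089.8, 1635 and 944 in the high mice. Those of Samd9l in experiment 2 were 661 in the pool, 513, 442 and 775 in the low mice, 798, 932 and 1014 in the medium mice and 783, 624 and 881 in the high mice. All 9 mice of experiment 1 were above the pool, as were the medium mice of experiment 2. Samd9l was 0.70 ± 0.32 (adjusted p = 0.662). The remaining members were Ifit2 (0.36 ± 0.60) and Eif2ak2 (0.26 ± 0.24).

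In the ISG15 system 2 of 3 genes were higher than control at the high dose-rate (51.4% of all genes). Usp18 encodes the protease that removes ISG15 and also blocks signalling at the interferon receptor, and it had the largest difference of any member. Usp18 signals in experiment 1 were 249.8 in the pool, 509.5, 272 and 1049.9 in the low mice, 230.3, 294 and 286 in the medium mice and 920.4, 2474 and 718 in the high mice. Those of Usp18 in experiment 2 were 313 in the pool, 283, 289 and 292 in the low mice, 438, 371 and 728 in the medium mice and 401, 415 and 388 in the high mice. In experiment 1 every high mouse read at least as high as 718 and every medium mouse at most 294. In experiment 2 the low mice lay just below the pool and all medium and high mice above it. Usp18 was 1.28 ± 0.54 (adjusted p = 0.62), with 2.21 in experiment 1 alone and 0.35 in experiment 2 alone.

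Herc6 encodes the main mouse ligase for ISG15. Herc6 signals in experiment 1 were 348 in the pool, 707, 246 and 483 in the low mice, 389, 296 and 371 in the medium mice and 487, 865 and 556 in the high mice. Those of Herc6 in experiment 2 were 377 in the pool, 185, 351 and 270.4 in the low mice, 357, 400.4 and 365 in the medium mice and 228, 306 and 306 in the high mice. The high mice were above the pool and the medium mice in experiment 1 and below both in experiment 2, without overlap. Herc6 was 0.19 ± 0.35 (adjusted p = 0.929), and 1 of 3 further probe sets read in the other direction. Trim25 encodes a ubiquitin ligase linked to RIG-I. Trim25 signals in experiment 1 were 2294 in the pool, 2496, 2022 and 2552 in the low mice, 2258, 2375 and 1990.5 in the medium mice and 2644, 2839.5 and 2352 in the high mice. Those of Trim25 in experiment 2 were 3472 in the pool, 2583, 2726 and 3142 in the low mice, 2886, 2359 and 3605 in the medium mice and 2401, 2508 and 2685 in the high mice. The high mice again lay above the pool in experiment 1 and below it in experiment 2. Trim25 was -0.14 ± 0.15 (adjusted p = 0.867) over both, 0.18 in experiment 1 alone and -0.46 in experiment 2 alone.

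Membrane, nucleotide and RNA effectors were higher at the high dose-rate in 5 of 5 cases (median 0.41, range 0.05 to 1.04), against 51.4% of all genes. Rsad2 encodes viperin, which makes a chain-terminating nucleotide. Rsad2 signals in experiment 1 were 690.0 in the pool, 906, 959.9 and 1566 in the low mice, 613, 1183 and 798 in the medium mice and 1505, 5218 and 1657 in the high mice. Those of Rsad2 in experiment 2 were 738 in the pool, 386, 784 and 685 in the low mice, 1049, 838 and 1720.4 in the medium mice and 1219.7, 793 and 819 in the high mice. High mouse 2 of experiment 1 read 5218, against at most 1720.4 on any other array. The other high mice of experiment 1 still exceeded the pool and all medium mice, and in experiment 2 the medium and high mice exceeded the pool and the low mice. Rsad2 was 1.04 ± 0.48 (adjusted p = 0.664).

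Cmpk2, the neighbour of Rsad2, encodes a mitochondrial nucleotide kinase. Cmpk2 signals in experiment 1 were 333 in the pool, 410.2, 291 and 359 in the low mice, 198, 303 and 288 in the medium mice and 487, 848 and 350.0 in the high mice. Those of Cmpk2 in experiment 2 were 170.2 in the pool, 99.4, 194 and 118 in the low mice, 199, 133 and 376 in the medium mice and 268, 249.5 and 287 in the high mice. High mice exceeded medium mice in experiment 1 and low mice in experiment 2 without overlap, and all 6 exceeded their pools. Cmpk2 was 0.64 ± 0.36 (adjusted p = 0.747) from control and 0.78 ± 0.26 (adjusted p = 0.268) from low. Trim30a encodes a mouse ubiquitin ligase that dampens inflammatory signalling. Trim30a signals in experiment 1 were 542 in the pool, 868, 772 and 973 in the low mice, 634, 562 and 629.9 in the medium mice and 1011, 1429 and 663 in the high mice. Those of Trim30a in experiment 2 were 541 in the pool, 548, 476 and 402 in the low mice, 635, 595 and 691 in the medium mice and 558, 496 and 526 in the high mice. The medium mice lay below all low mice in experiment 1 and above all low and all high mice in experiment 2. Trim30a was 0.41 ± 0.26 (adjusted p = 0.774).

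Bst2 encodes tetherin, which holds budding virus at the cell surface. Bst2 signals in experiment 1 were 5342 in the pool, 4534, 6244 and 8275 in the low mice, 3842, 4289.5 and 5580.1 in the medium mice and 6311, 8659 and 5404 in the high mice. Those of Bst2 in experiment 2 were 3697 in the pool, 3334, 4145 and 3961 in the low mice, 3372, 3411 and 3438 in the medium mice and 2675, 3809 and 3186 in the high mice. Its signals were lower on average in experiment 2 than in experiment 1, and the levels overlapped within each experiment. Bst2 was 0.05 ± 0.21 (adjusted p = 0.972) from control. Adar encodes an enzyme that edits double-stranded RNA. Adar signals in experiment 1 were 394 in the pool, 534, 466 and 468 in the low mice, 464, 454 and 484 in the medium mice and 568, 609.8 and 479.7 in the high mice. Those of Adar in experiment 2 were 659.8 in the pool, 573, 648 and 429 in the low mice, 627, 527 and 713 in the medium mice and 649.6, 522 and 653 in the high mice. All 9 mice of experiment 1 exceeded the pool, and in experiment 2 the high mice lay below it. Adar was 0.17 ± 0.17 (adjusted p = 0.851).

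All 4 genes of the ADP-ribosyltransferase group were higher than control at the high dose-rate (51.4% of all genes), with a narrow range of 0.16 to 0.38. Parp12 encodes an enzyme that restrains translation of viral RNA. Parp12 signals in experiment 1 were 1065 in the pool, 1099, 861 and 1100.3 in the low mice, 1078, 947 and 1001 in the medium mice and 1292, 1900.0 and 1122 in the high mice. Those of Parp12 in experiment 2 were 1078 in the pool, 999.6, 1334 and 1207 in the low mice, 1299.6, 1499 and 1373 in the medium mice and 1521, 1333 and 1344 in the high mice. In experiment 1 the 3 high mice were above all other arrays of that experiment, and all 6 high mice exceeded their pools. Parp12 was 0.38 ± 0.17 (adjusted p = 0.649) from control and 0.36 ± 0.12 (adjusted p = 0.279) from low.

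Parp9 and Dtx3l encode 2 parts of a complex that ubiquitinates histones. Parp9 signals in experiment 1 were 1668 in the pool, 1896, 1435 and 2274 in the low mice, 1692, 1834 and 1802 in the medium mice and 2243, 3386 and 2187 in the high mice. Those of Parp9 in experiment 2 were 2159.7 in the pool, 1958, 2052 and 2247 in the low mice, 2624, 2644 and 2744 in the medium mice and 2296, 2299 and 2481 in the high mice. All 6 high and all 6 medium mice exceeded their pools, and medium mice were the highest of experiment 2. Parp9 was 0.37 ± 0.18 (adjusted p = 0.708). Dtx3l signals in experiment 1 were 1433 in the pool, 1849.6, 1644 and 1645 in the low mice, 1251, 1552 and 1492 in the medium mice and 2050.3, 2005 and 1576 in the high mice. Those of Dtx3l in experiment 2 were 1446 in the pool, 1180.2, 1219 and 1255 in the low mice, 1484, 1389 and 1598 in the medium mice and 1376, 1264 and 1512 in the high mice. Medium mice lay below all low mice in experiment 1 and above all low mice in experiment 2. Dtx3l was 0.15 ± 0.15 (adjusted p = 0.851).

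Parp14 encodes a large ADP-ribosyltransferase. Parp14 signals in experiment 1 were 437 in the pool, 645, 488 and 558 in the low mice, 485, 531 and 489.7 in the medium mice and 814, 841 and 692 in the high mice. Those of Parp14 in experiment 2 were 588 in the pool, 394, 561 and 499 in the low mice, 700.0, 577 and 522 in the medium mice and 603, 575 and 414 in the high mice. The high mice of experiment 1 were above every other array of that experiment, whereas in experiment 2 the high group reached from below the lowest medium mouse to above the pool. Parp14 was 0.33 ± 0.21 (adjusted p = 0.785), and the test of the difference between experiments gave -0.99 ± 0.34 (adjusted p = 0.998), the smallest unadjusted p of any member for that difference.

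Other induced genes were higher at the high dose-rate in 5 of 5 cases (median 0.57), against 51.4% of all genes. Rtp4 encodes a zinc finger protein that binds RNA and modulates the interferon response. Rtp4 signals in experiment 1 were 836 in the pool, 1398, 1107 and 2147 in the low mice, 906, 1429 and 1554 in the medium mice and 2410.2, 6429 and 2117 in the high mice. Those of Rtp4 in experiment 2 were 1409 in the pool, 1076, 1175 and 1410.4 in the low mice, 1910.4, 1345 and 2246 in the medium mice and 1983, 1544 and 1566 in the high mice. All 9 irradiated mice of experiment 1 exceeded the pool, as did the high mice of experiment 2. Rtp4 was 1.09 ± 0.39 (adjusted p = 0.498) at the high, 0.47 ± 0.39 (adjusted p = 0.896) at the medium and 0.31 ± 0.39 (adjusted p = 0.998) at the low dose-rate.

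Xaf1 encodes an interferon-induced antagonist of apoptosis inhibitors. Xaf1 signals in experiment 1 were 372 in the pool, 706, 406 and 843 in the low mice, 460.0, 366 and 529.8 in the medium mice and 731, 1078 and 599.5 in the high mice. Those of Xaf1 in experiment 2 were 426 in the pool, 462, 462 and 505 in the low mice, 553, 501 and 573 in the medium mice and 534, 369.9 and 478 in the high mice. It was the 1 member above the pool in all 6 low mice (5.21% of all genes). Xaf1 was 0.45 ± 0.28 (adjusted p = 0.998) at the low and 0.57 ± 0.28 (adjusted p = 0.695) at the high dose-rate. Ifi27l2a encodes a small membrane protein. Ifi27l2a signals in experiment 1 were 429 in the pool, 743, 297 and 1041 in the low mice, 367, 353 and 462 in the medium mice and 759, 1109 and 698 in the high mice. Those of Ifi27l2a in experiment 2 were 327 in the pool, 228, 407 and 409 in the low mice, 517, 360.2 and 390.5 in the medium mice and 421, 333 and 402 in the high mice. All 6 high mice exceeded their pools and, in experiment 1, all medium mice. Ifi27l2a was 0.59 ± 0.36 (adjusted p = 0.765).

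Ifi35 encodes an interferon-induced leucine zipper protein. Ifi35 signals in experiment 1 were 3949 in the pool, 4254, 3844 and 4877 in the low mice, 3796, 4092 and 5272 in the medium mice and 4755, 7239 and 5020.5 in the high mice. Those of Ifi35 in experiment 2 were 4043 in the pool, 4292, 4528 and 3007 in the low mice, 4088, 4341 and 4460.1 in the medium mice and 3829.7, 4555 and 4592 in the high mice. The groups overlapped in both experiments, and a probe set of its other 2 pointed against the first. Ifi35 was 0.29 ± 0.17 (adjusted p = 0.75). Lgals3bp, a secreted glycoprotein, was 0.42 ± 0.25 (adjusted p = 0.754). Cxcl10 encodes the chemokine that draws T cells. Cxcl10 signals in experiment 1 were 222 in the pool, 425, 308 and 463 in the low mice, 193, 119 and 278 in the medium mice and 347, 423 and 312 in the high mice. Those of Cxcl10 in experiment 2 were 220.1 in the pool, 77.8, 191 and 218 in the low mice, 290.3, 174 and 375 in the medium mice and 221, 209.9 and 200.5 in the high mice. Low and high mice of experiment 1 exceeded the pool, and the low mice of experiment 2 lay below it. Cxcl10 was 0.30 ± 0.44 (adjusted p = 0.906). Another probe set was opposite in the high against control direction for 5 of the 17 members that had others, Ddx58, Zbp1, Stat2, Herc6 and Ifi35. Oas1a, Ifit3 and Trim30a have close copies in the mouse genome, and whether their probe sets also read these was not tested.

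Differences between irradiated groups do not rest on the pools, but their SE and p-values come from the fit that includes them. High mice read higher than low mice for 35 of 36 members (50.9% of all genes), with a median difference of 0.31 against 0.00 over all genes. None passed the adjusted threshold by limma, as did 0% of all genes, and 13 had an unadjusted p under 0.05, against 5.38% of all genes in that direction. The 13 were Ifih1, Oasl1, Ifit1, Ifit2, Eif2ak2, Usp18, Rsad2, Cmpk2, Parp9, Parp12, Rtp4, Ifi35 and Lgals3bp. The exception to the direction was Bst2 (-0.07 ± 0.15), and Trim25 was at 0.00. The median stood at 0.33 in experiment 1 and 0.26 in experiment 2, with 27 of 36 members higher in both experiments (27.5% of all genes). It was 0.19 without high mouse 2 of experiment 1. High and low mice were separate for 2 members in experiment 1 (6.05% of all genes) and for 16 in experiment 2 (7.67%), and for none in both (0.625%).

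High mice also read higher than medium mice for 35 of 36 members on average (47.8% of all genes), with a median of 0.28, or 0.17 without high mouse 2 of experiment 1. None of the 36 had an adjusted p under 0.05 by limma, and 7 had an unadjusted p under 0.05 (1.76% of all genes in that direction). The sign of the median differed between experiments. The median was 0.77 in experiment 1 and -0.11 in experiment 2, and 25 of 36 members were higher in experiment 1 and lower in experiment 2 (27.6% of all genes). In experiment 1 the 3 high mice lay above all 3 medium mice for 25 members, against 4.23% of all genes. Leaving out high mouse 2 can only keep or raise this count, and it was 25 without that mouse, against 8.33% of all genes. In experiment 2 this held for 1 member, Oas2 (5.33% of all genes).

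Medium against low gave the reverse. The median was -0.35 in experiment 1, with 31 of 36 members lower, where 50.5% of all genes were higher. In experiment 2 it was 0.37, with 33 of 36 higher (52.5% of all genes). Over both experiments it was 0.04, with 20 of 36 higher (52.2% of all genes) and 0 members at an unadjusted p under 0.05 (4.55% of all genes were that much higher). Members lower in experiment 1 and higher in experiment 2 numbered 29 of 36 (26.9% of all genes). All medium mice lay above all low mice in experiment 2 for 13 members (8.73% of all genes) and below them in experiment 1 for 4 (5.31%), which were Oas1a, Trim30a, Dtx3l and Cxcl10.

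The order of the group means shows the same values another way. In experiment 1 the high group was the highest irradiated group for 32 members and the medium group the lowest for 30. In experiment 2 the low group was the lowest for 30 and the medium group the highest for 24. Across all genes each group took each place in 30.2% to 37.4% of cases.

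The inequality between the experiments was tested as an interaction of level and experiment, and for these 2 comparisons the test was added after the values had been seen. For medium against low the difference between experiments was positive for 34 of 36 members (median 0.77), against 51.2% of all genes. There were 17 at an unadjusted p under 0.05 (4.47% of all genes in that direction) and 0 adjusted. Oasl1 was 1.68 ± 0.35 (adjusted p = 0.134), the smallest p of the members, followed by Cxcl10 at 1.87 ± 0.49 (adjusted p = 0.256). For high against medium it was negative for 34 of 36 (median -0.84), where 48.4% of all genes were positive. There were 21 at an unadjusted p under 0.05 (2.9% of all genes in that direction) and 0 adjusted. Usp18 was -2.39 ± 0.57 (adjusted p = 0.645) and Ifih1 -0.93 ± 0.23 (adjusted p = 0.645). Without low mouse 2 of experiment 1, Ddx58 (1.22 ± 0.21, adjusted p = 0.0282) and Irf7 (1.66 ± 0.30, adjusted p = 0.0335) passed for medium against low by limma. With all arrays and over all genes, these interactions passed the adjusted threshold for 0 of 11206 in either comparison, so the opposite directions of the members rest on unadjusted values. For high against low, whose median was above 0 in both experiments, the difference between experiments had a median of -0.14 and was positive for 14 of 36 members (50.3% of all genes). An unadjusted p under 0.05 was found for 1 member above 0 (3.17% of all genes) and for 0 below 0 (3.9%), and the 1 was Oas2 at 1.72 ± 0.82 (adjusted p = 0.702).

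**Figure D3:**
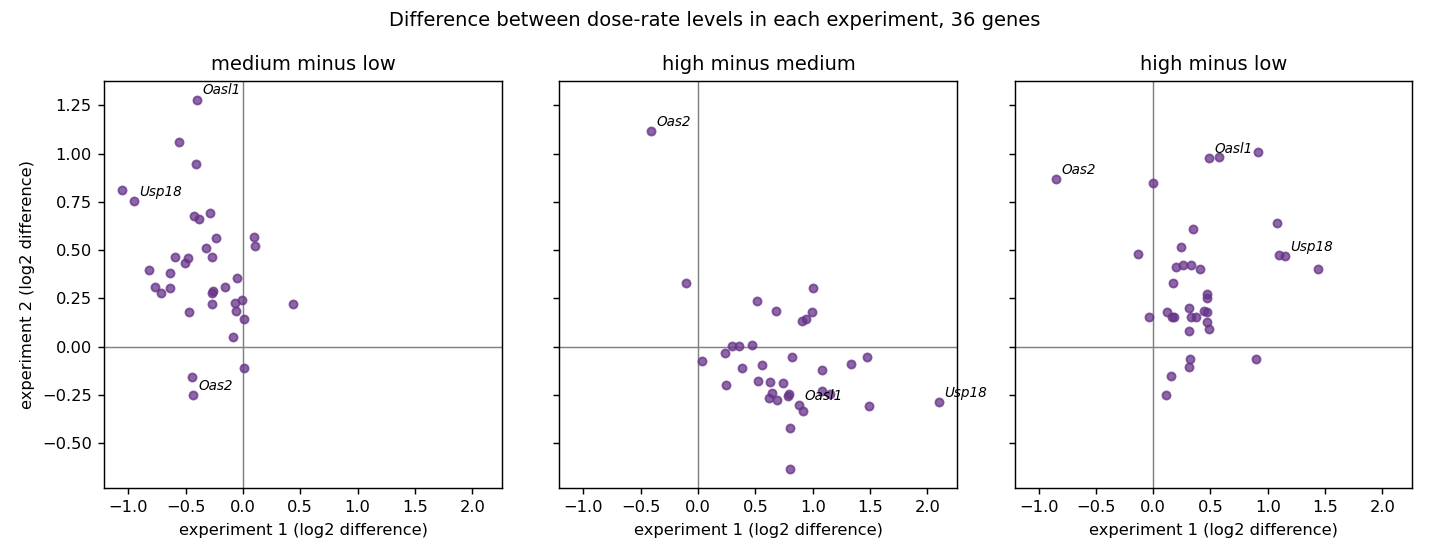
Each point is 1 of 36 interferon genes, with its log2 difference between 2 dose levels in experiment 1 (x axis) and in experiment 2 (y axis), and grey lines at 0. Medium minus low lies mostly in the upper left, with 29 of 36 genes lower in experiment 1 and higher in experiment 2, while high minus low lies mostly in the upper right, with 27 of 36 higher in both.

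Mice of 1 group also differed among themselves, most in experiment 1. The median SD between mice of a group was 0.44 (log2) over members in the low group and 0.40 in the high group of experiment 1, against 0.22 and 0.21 over all genes. It was 0.21 in the medium group (0.20 over all genes). In experiment 2 it ran from 0.18 to 0.22 over members in the 3 groups, against 0.18 to 0.19 over all genes.

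The high mouse numbered 2 of experiment 1 stood above the rest. It had the highest signal of all 20 arrays for 26 of 36 members, against 5.69% of all genes, and lay a median of 0.97 above its pool. High mice 1 and 3 lay 0.60 and 0.35 above. In the low group of experiment 1, mice 1 and 3 lay 0.47 and 0.60 above the pool and mouse 2 at -0.08. Low mouse 2 exceeded its group mean for 2 of 36 members. It also held the lowest of the 20 signals for 5 members, Ifit2 with 9.37 among them.

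Marker genes of other cells differed between these mice too. The summed signal of 13 Kupffer cell and macrophage genes was 35104, 26274 and 35217 in low mice 1, 2 and 3 of experiment 1, the same order as the interferon genes, and 24614, 21845 and 32702 in the medium mice. In the high mice it was 25934, 28680 and 30785, so high mouse 2 was in the middle there, and the pool read 25320. Neutrophil genes summed to 3825, 854 and 1810 in those low mice and to 833 to 1439 in the high mice, and 4 of 8, Cxcr2, Mmp8, Ltf and Camp, were below the filter. For T and NK cells 11 of 12 genes were below the filter, and the sum was 714 in low mouse 2 against 872 and 1103. B and plasma cell genes, 4 of 7 above the filter, summed to 2026, 1084 and 1961 in the same low mice. For plasmacytoid dendritic cells, the main blood source of interferon alpha, the defining markers Siglech and Ccr9 were below the filter, and the sum in high mouse 2 was 305, against 396 and 329 in high mice 1 and 3. The part of these cells in the spread was not tested.

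**Figure D4:**
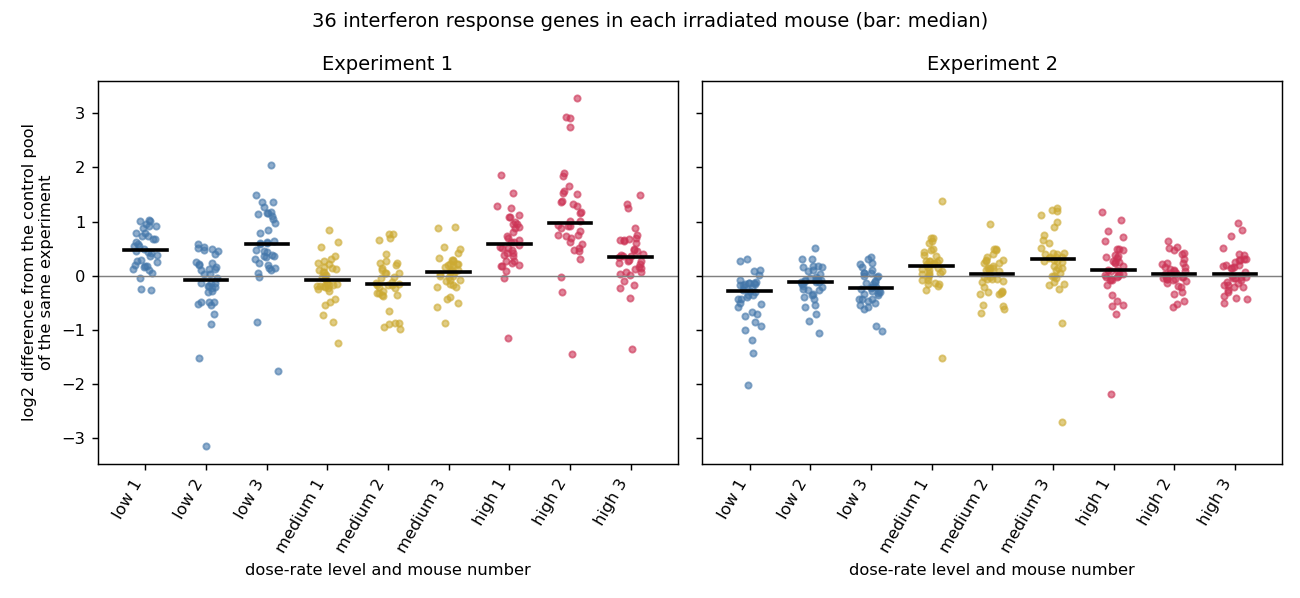
Each point is 1 of 36 interferon genes in 1 irradiated mouse, as the log2 difference from the control pool of the same experiment, with a bar at the median of the mouse. High mouse 2 of experiment 1 has the highest median, 0.97, and low mouse 2 sits at -0.08 while low mice 1 and 3 sit at 0.47 and 0.60, and all medians of experiment 2 lie between -0.29 and 0.32.

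The members varied together from mouse to mouse. After each group mean was subtracted, the median Pearson correlation over the 630 pairs of members was 0.42 across 18 mice, with 88.1% of pairs above 0, and 0.32 across 15 mice without the high group of experiment 1. Over all pairs of genes it was 0.002. These points share the array and its scaling, and the correlations are given as a description. With the mean of the other members, Lgals3bp (0.91), Parp9 (0.90), Xaf1 (0.89) and Usp18 (0.88) followed most closely across the 18 mice. Stat2 (0.04), Irf1 (-0.06) and Oas2 (-0.30) did not follow the set. Across the 15 mice Ifi27l2a was closest (0.92), then Lgals3bp (0.86) and Parp9 (0.86), and Usp18 was at 0.81.

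The genes outside the set that were most like its mean over the 18 mice were Irgm1 (0.91), an immunity GTPase, Bgn (0.90), a matrix proteoglycan, and Ifi209 (0.87), a DNA-binding gene of the interferon family. Snx10, Tmsb10, Mfsd11, Tspan18, Txnrd1, Mvp and Pdgfrb followed with correlations of 0.79 to 0.84. Their order depended on the high group of experiment 1. Across the 15 mice without it, Irgm1 was at 0.84 and Ifi209 at 0.77. Higher there were Tmsb10 (0.93), Tspan18 (0.91), Snx10 (0.91), Pdgfrb (0.90) and Bgn (0.90). Bgn and Snx10 were at -0.005 and -0.02 against control at the high dose-rate, and Ifi209 was at 0.88.

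Experiment 2 read above experiment 1 for 12 of 36 members (57.6% of all genes). Between the experiments 10 of 36 members passed the threshold, 3 higher and 7 lower in experiment 2, against 42.7% of all genes (27.9% higher and 14.8% lower). Bst2 fell most clearly, with -0.70 ± 0.12 (adjusted p = 4.87e-05) by limma. Also lower were Ifit3 at -0.82 ± 0.18 (adjusted p = 0.000757), Cmpk2 at -0.87 ± 0.20 (adjusted p = 0.00126) and Trim30a at -0.51 ± 0.14 (adjusted p = 0.00603). Ifi27l2a (-0.60 ± 0.20), Herc6 (-0.52 ± 0.19) and Dtx3l (-0.26 ± 0.08) also fell. Oas2 rose by 1.05 ± 0.33 (adjusted p = 0.0143), and Adar (0.28 ± 0.09) and Trim25 (0.24 ± 0.09) rose too. Here experiment, duration, age at death and dose-rate cannot be told apart.

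Upstream of the members, the interferon genes themselves read low. Of 12 listed, 9 were on the array and 7 were below the filter, among them Ifnb1 (10.3 to 133 over the 20 arrays) and Ifng (1.89 to 70.7). Ifna1 ran from 70.2 to 186.0 and was 0.03 ± 0.30 (adjusted p = 0.988) at the high dose-rate, and Ifna2 ran from 56.4 to 409 and was -0.13 ± 0.43 (adjusted p = 0.965). High mouse 2 of experiment 1 had signals of 165 for Ifna1 and 173 for Ifna2, within the range of the other mice.

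The receptor chains and their kinases were all measured, and 0 of 7 passed the threshold. Ifnar1 was 0.11 ± 0.12 and Ifnar2 -0.13 ± 0.15 from control at the high dose-rate. Of the interferon gamma receptor chains Ifngr1 was -0.09 ± 0.25 and Ifngr2 0.64 ± 0.30 (adjusted p = 0.671), the 1 gene of the 7 with an unadjusted p under 0.05, with its other probe set opposite. The kinase genes Jak1, Jak2 and Tyk2 were -0.08 ± 0.13, 0.17 ± 0.14 and 0.06 ± 0.20. The 5 further transcription factors tested had a median of -0.08, with 0 past the threshold. Of 8 sensors and adaptors above the filter 0 passed, and Tlr3, an endosomal receptor for RNA, was highest at 0.70 ± 0.27 (adjusted p = 0.564).

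Among 7 inhibitors above the filter, Rnf125, a ubiquitin ligase that marks RIG-I and MDA5 for destruction, was the 1 gene past the threshold. Rnf125 signals in experiment 1 were 10308 in the pool, 13816, 14324 and 16403 in the low mice, 18810, 21462 and 16520 in the medium mice and 20947, 22342 and 22214 in the high mice. Those of Rnf125 in experiment 2 were 12083 in the pool, 14638, 14198 and 16198 in the low mice, 17337, 17950 and 19024 in the medium mice and 19692, 17662 and 16572 in the high mice. All 18 irradiated mice exceeded their pools. Rnf125 rose by 0.82 ± 0.11 (adjusted p = 0.00364) at the high and by 0.72 ± 0.11 (adjusted p = 0.0127) at the medium dose-rate (limma), and was 0.42 ± 0.11 (adjusted p = 0.7) at the low. Socs3, a feedback inhibitor of cytokine signalling, was -0.95 ± 0.56 (adjusted p = 0.757).

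Immunity GTPases, which interferon gamma also induces, had a median of 0.57 at the high dose-rate, with 9 of 10 higher than control (51.4% of all genes) and 4 at an unadjusted p under 0.05 (4.1% of all genes in that direction). Igtp was 0.63 ± 0.24 (adjusted p = 0.56), Irgm1 0.56 ± 0.21 (adjusted p = 0.56) and Ifi47 0.59 ± 0.23 (adjusted p = 0.571). The 15 measured genes of MHC class I presentation had a median of 0.15, with 10 higher (51.4% of all genes) and 2 at an unadjusted p under 0.05 (4.1%). Nlrc5, the activator of MHC class I transcription, was 0.70 ± 0.18 (adjusted p = 0.243), H2-M3 was 0.50 ± 0.20 (adjusted p = 0.597) and Tapbp 0.24 ± 0.13 (adjusted p = 0.748). No gene of either list passed the adjusted threshold.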

How the data were processed

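Liver RNA of 18 irradiated mice and 2 control pools was measured on Affymetrix arrays. Each deposited value is a linear intensity per probe set, the MAS5 signal named in the submitters' processing notes, its version not given in the sources used here. Without its top and bottom 2% of signals, every array averaged 500.0. The table held 45101 probe sets, of which 34945 had 1 gene symbol in the platform annotation, 932 several and 9160 none, and 64 were array controls. No 2 arrays held identical values.

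Signals were taken as log2(signal + 7.12), the 10th percentile of all signals, which understates the change of dim genes. Genes with a mean of at least 84.9 were fitted with limma 3.58.1 in R 4.3.3 (lmFit and eBayes with a variance trend) to all 20 arrays by dose level plus experiment. This left 15 residual degrees of freedom. Tests were two-sided, with Benjamini-Hochberg adjustment over all 11206 genes and a threshold of 0.05. Interactions came from a model of the 8 groups. The procedure was tested on simulated data. Precision is limited by how few arrays there are, most so against the 2 pools.

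The members and the gene lists were chosen with earlier results of these data known, so no test was made of the set. Members were ordered by role. All values are given for members past the threshold in any comparison, the 3 with the smallest p for high against control in each role and the member with the smallest p in each other comparison. From outside the set came the receptor and interferon genes, up to 3 genes of each comparison list and the 10 genes most correlated with the members. Tlr3, Socs3 and Rnf125 were named after their values were seen. Alternatives covered the pseudocount, filter, scaling, probe set choice, variance trend, experiment term, weights, replicate block and left-out arrays.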

Additional observations from a re-analysis of the deposited data

Results flagged for a closer look

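Some members had every mouse of a group on one side of its comparison in experiment 1 and on the other side in experiment 2. The values below are experiment 2 minus experiment 1 on the log2 scale from the test of that difference. None passed the threshold after adjustment by limma. For low against control, 10 of 36 members were above the pool in experiment 1 and below it in experiment 2 (5.44% of all genes). These were Ifit1 (-1.41), Sp100 (-1.40), Cxcl10 (-1.35), Usp18 (-1.17), Ifit3 (-0.99), Oas1a (-0.96), Oasl1 (-0.92), Parp14 (-0.64), Adar (-0.58) and Dtx3l (-0.50).

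For high against control the same held for 4 members (5.01% of all genes), Herc6 (-1.25), Oas1a (-1.19), Trim25 (-0.64) and Adar (-0.60). For medium against control, 3 members were below the pool in experiment 1 and above it in experiment 2 (5.09% of all genes), Irf7 (1.00), Oasl2 (0.86) and Ifih1 (0.40). A single pool stands on the other side of each of these comparisons.

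Between irradiated groups, medium mice lay below all low mice in experiment 1 and above them in experiment 2 for 2 members (0.402% of all genes). These were Trim30a (0.94, adjusted p = 0.3 by limma) and Dtx3l (0.55, adjusted p = 0.306). High mice lay above all medium mice in experiment 1 and below them in experiment 2 for 4 members (0.286% of all genes), Irf7 (-1.39), Herc6 (-1.23), Trim30a (-0.97) and Parp9 (-0.70).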

How the results depend on the processing

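No member passed the threshold between dose levels under any change of pseudocount, filter, scaling, probe set, variance trend, experiment term or left-out array, and none for a difference between experiments except without low mouse 2 of experiment 1 (2 members for medium against low). Weighting arrays by their mice gave 1 member for high against control, Oasl1 (1.08, adjusted p = 0.0305 by limma), and 1 for its difference between experiments, Parp14. These weights assume that pool arrays vary less, which was not tested. Centring arrays on their medians moved all differences from control at the high dose-rate by -0.10 and gave a median of 0.26 with 29 of 36 higher. At the medium and low dose-rates it turned the medians to -0.06 and -0.07. Leaving out 1 array gave medians of 0.19 to 0.49 for high against control, -0.09 to 0.19 for medium, -0.11 to 0.20 for low against control, 0.19 to 0.39 for high against low, 0.17 to 0.36 for high against medium and -0.05 to 0.10 for medium against low. In each contrast with control the lowest came without the experiment 1 pool. Without a pool its interactions could not be fitted.

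In experiment 1 alone the medians were 0.65 for high and 0.30 for low against control, -0.35 for medium against low and 0.77 for high against medium, and in experiment 2 alone 0.092, -0.23, 0.37 and -0.11. Among the 29 members with signals given in full, those whose direction turned in experiment 1 alone were Trim25 for high against control (0.18) and, for high against low, Sp100 (-0.005), Oas2 (-0.85), Cxcl10 (-0.13) and Bst2 (0.11). In experiment 2 alone they were, for high against control, Ddx58 (-0.014), Dhx58 (-0.22), Herc6 (-0.43), Trim30a (-0.041), Parp14 (-0.17), Cxcl10 (-0.064), Bst2 (-0.21), Adar (-0.12) and Dtx3l (-0.067), and for high against low Trim25 (-0.15) and Xaf1 (-0.063). Median centring turned Dhx58 (-0.037) and Bst2 (-0.048) against control and Trim25 against low (-0.004), and a pseudocount of 1 turned Oas2 against low (-0.003). Of the other 7 members Zbp1, Stat2, Irf1 and Oas1a also turned in at least 1 of these comparisons in experiment 1 or 2 alone. With 1 array left out, the difference from control at the high dose-rate ran from -0.078 to 0.43 for Adar, -0.066 to 0.15 for Bst2, -0.10 to 0.23 for Dhx58, -0.16 to 0.54 for Herc6, -0.07 to 0.90 for Sp100 and -0.33 to 0.058 for Trim25. From low it ran from -0.19 to 0.022 for Bst2, -0.11 to 0.32 for Cxcl10, -0.20 to 0.28 for Oas2, -0.057 to 0.047 for Trim25 and -0.027 to 0.25 for Xaf1.

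Replicate numbers were not treated as pairs in the main fit. Same-numbered mice correlated at -0.15 to 0.31 (median 0.08), and mice of different numbers at a median of -0.02. These values cannot show whether the numbers carry a pairing. With the replicate block over the irradiated arrays 0 members passed and the medians were 0.31 for high against low, 0.28 for high against medium and 0.04 for medium against low. Over all genes the block gave 1 call for high against low, against 0 without it.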
